A study of Mus musculus with 2 samples.

Results

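Transcripts of 7 genes of the Wnt pathway were followed across the cell classes of the mouse embryonic dorsal telencephalon. They were 5 Wnt ligands (Wnt3a, Wnt5a, Wnt7a, Wnt7b and Wnt8b), Wls and Rspo2. Members were found by their symbols, and each of the 7 symbols named 1 of the 32285 genes in the count tables. The data are single-cell transcriptomes of dissociated dorsal telencephalon of wild-type embryos of the EomesDot line at embryonic day 14.5. Both libraries carried the genotype label WT and are called replicate 2 and replicate 4 as in their titles, so no groups of animals could be compared and the comparisons below are between cell classes. Dissociation used papain, and 10x Genomics 3′ chemistry captured the RNA. The study's methods describe C57BL/6J embryos, and how these relate to the EomesDot line of the labels is not stated. The study asked, among other things, how migrating interneurons may signal to cortical progenitors, and these libraries served its search for signals between cell types.

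Wnt proteins are secreted, lipid-modified ligands that bind Frizzled receptors together with co-receptors. Wls (Wntless) is the transmembrane carrier that takes Wnt proteins from the Golgi to the cell surface. Wnt3a and Wnt8b are ligands of the canonical branch, which acts through β-catenin and TCF/LEF transcription factors, and in the forebrain they are known as ligands of the cortical hem and the neighbouring medial pallium. Wnt7a and Wnt7b are also canonical ligands of the developing brain, whereas Wnt5a is best known for signalling without β-catenin. Rspo2 is an R-spondin, a secreted protein that binds Lgr receptors and strengthens Wnt signalling by keeping Frizzled receptors on the cell surface. The cortical hem is a signalling centre at the medial edge of the cortex, next to the epithelium that forms the choroid plexus.

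The libraries held 40267872 and 49422007 UMIs (unique molecular identifiers, each marking 1 captured transcript) in 1712 and 2589 barcodes. The filters retained 1199 and 1923 cells, with medians of 30810.0 and 22826.0 UMIs. Only 1 retained barcode occurred in both libraries. Emx1, which marks pallium, stood at 86.3 CPM ± 5.67 over all retained cells. CPM are UMIs per 1000000 UMIs of a summed group of cells, and a value with ± is a mean and its SD across the libraries (n = 2) or, for a fold change, its SE. Classes were named from marker genes with the Wnt genes left out of the clustering. There were 28 and 20 hem or choroid plexus-like cells, 221 and 384 RGC-like cells (radial glial cells), 244 and 433 IPC-like cells (intermediate progenitors), 414 and 577 excitatory neuron-like cells, and 54 and 108 interneuron-like cells of the medial ganglionic eminence (MGE). In the hem or choroid plexus-like class 15 of 16 markers were raised, Lmx1a, Msx1 and Bmp4 of the hem and Ttr, Kcne2 and Folr1 of the choroid plexus among them. All 12 RGC markers were raised in each of the 3 RGC-like clusters. The study states in general that embryos of different litters were used, but not from which embryos these libraries came, so the tests measure the spread between these libraries. Both titles carry the same number before the replicate number, and what it names is not stated. Counting intervals cover counting error only.

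The members differed widely in abundance and in where they were found. Retained cells held 5506 UMIs of Wnt7b, 2928 of Rspo2, 2866 of Wls, 1238 of Wnt7a, 966 of Wnt5a, 565 of Wnt8b and 85 of Wnt3a. Excitatory neuron-like cells held 73.6% of the Wnt7b UMIs, and RGC-like cells held 58.3% of the Wnt7a UMIs. The 48 hem or choroid plexus-like cells held 84.8% of the Rspo2 UMIs, 83.5% of the Wnt3a UMIs, 50.8% of the Wnt8b UMIs and 27.1% of the Wls UMIs. The Wnt5a UMIs were spread wider, and their largest share in a class, 22.8%, was in IPC-like cells. By level, the hem or choroid plexus-like class ranked first of the 8 classes in the fit for Wls, Wnt8b, Wnt3a, Wnt5a and Rspo2. MGE interneuron-like cells ranked first for Wnt7a and Cajal-Retzius-like cells for Wnt7b.

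**Figure D1:**
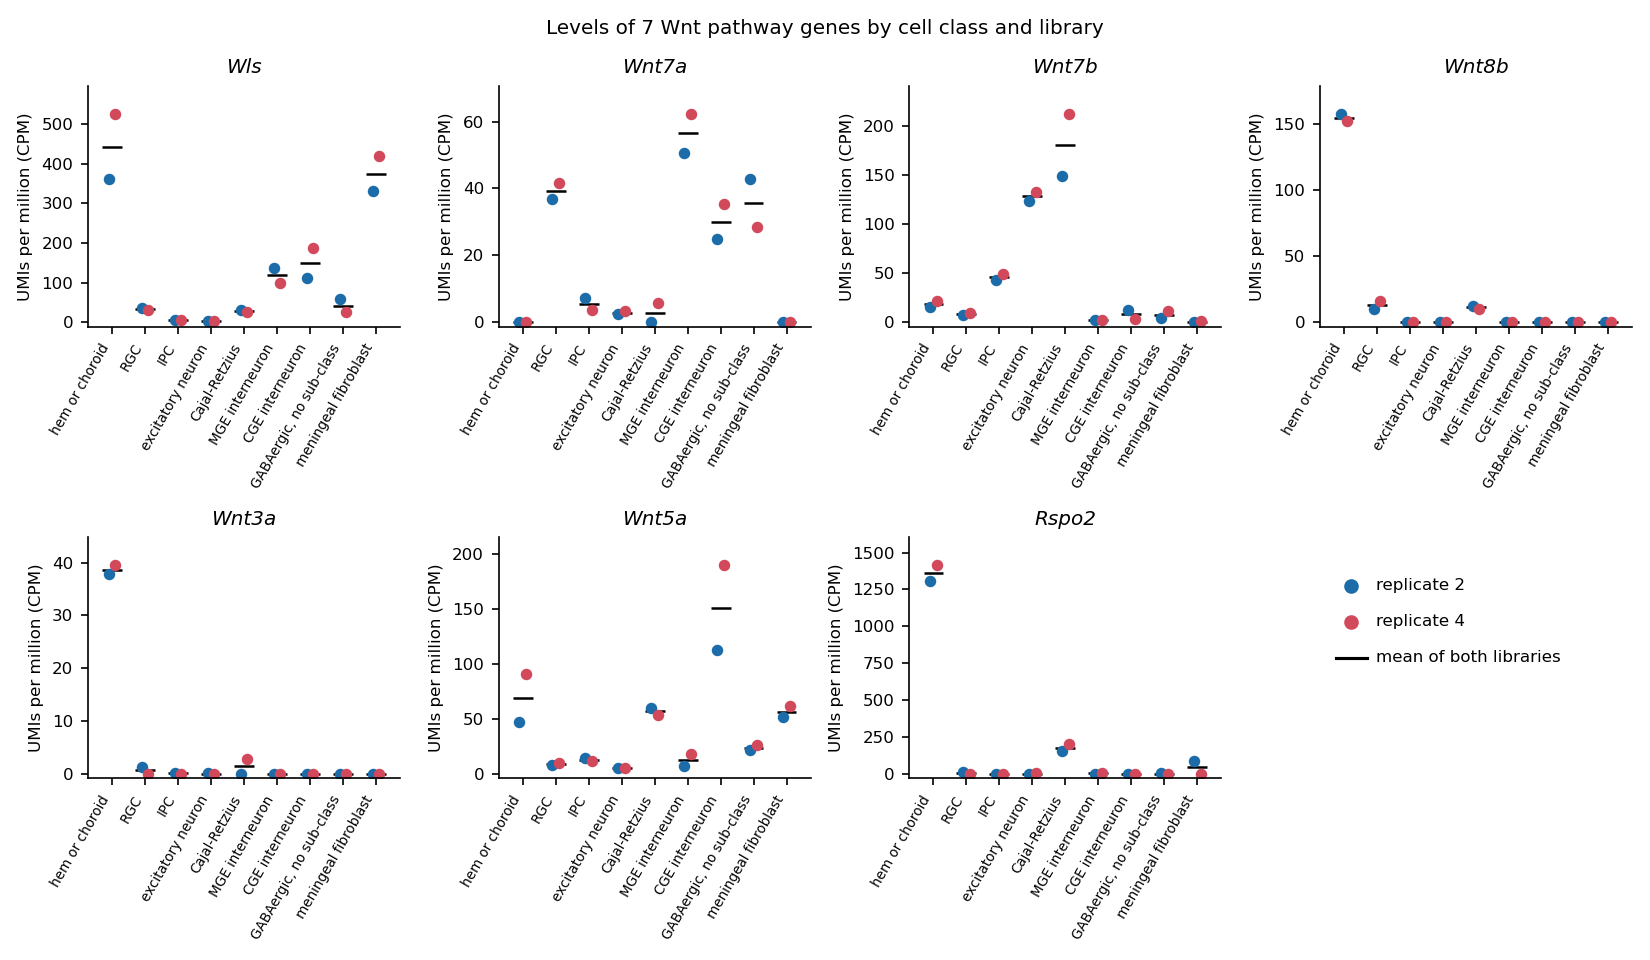
Levels of the 7 genes (vertical axes, CPM of the class, linear) in 9 cell classes (horizontal axes), with 1 point per library and a bar at the mean of both libraries. Rspo2, Wnt8b and Wnt3a are high in the hem or choroid plexus-like class in both libraries, Wnt7a is high in RGC-like and MGE interneuron-like cells, and Wnt7b rises from RGC-like to IPC-like to excitatory neuron-like cells.

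Wls was highest in hem or choroid plexus-like cells, at 360 CPM in replicate 2 and 525 CPM in replicate 4. Meningeal fibroblast-like cells, which are no neural cells, came next at 329.6 and 419.9 CPM, and these neighbouring ranges overlapped. MGE interneuron-like cells followed at 137 and 98.8 CPM, below both and above all other classes in the fit. RGC-like cells had 36.1 and 30.3 CPM, within the spread of the GABAergic cells of no sub-class (57.9 and 25.1 CPM), of which 46 (7 and 39) formed a sub-cluster led by the mitotic genes Top2a and Mki67 and 26 (18 and 8) one led by Egfem1. IPC-like cells had 4.59 and 5.49 CPM and excitatory neuron-like cells 3.08 and 2.07 CPM, the lowest of the 8 classes. At least 1 Wls UMI was found in 26 of 28 and 20 of 20 hem or choroid plexus-like cells, 64 of 221 and 112 of 384 RGC-like cells, and 36 of 54 and 42 of 108 MGE interneuron-like cells. In excitatory neuron-like cells, the class with the lowest level, it was found in 4.35% and 4.51% of cells at median depths of 36637.5 and 26737.0 UMIs. The MGE interneuron-like cells had median depths of 23450.5 and 12045.5 UMIs. Thinned to 5000 UMIs per cell, the shares were 49.1% and 25.5% in MGE interneuron-like cells, 11.3% and 12.1% in RGC-like cells, and 0.487% and 0.888% in excitatory neuron-like cells.

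Wnt8b and Wnt3a, the hem ligands, had UMIs in the fewest classes of the fit, but RGC-like cells held 43.7% of the Wnt8b UMIs. Wnt8b stood at 158 and 152 CPM in hem or choroid plexus-like cells. RGC-like cells had 10.3 and 16.0 CPM and Cajal-Retzius-like cells 12.5 and 9.92 CPM, which overlapped. No Wnt8b UMI was found in 991 excitatory neuron-like, 162 MGE interneuron-like or 48 meningeal fibroblast-like cells, and IPC-like cells held 2 and 5. The share of cells with a Wnt8b UMI was 67.9% (Clopper-Pearson 95% interval 47.6 to 84.1) and 70.0% (45.7 to 88.1) in hem or choroid plexus-like cells, and 9.05% (5.62 to 13.6) and 10.7% (7.77 to 14.2) in RGC-like cells. Thinned to 5000 UMIs the RGC-like shares were 2.36% and 5.48%. Wnt3a stood at 37.9 and 39.5 CPM in hem or choroid plexus-like cells, from 44 and 27 UMIs. In RGC-like cells it gave 10 UMIs in replicate 2, all in cells that also held a UMI of the hem marker Lmx1a, and 0 in replicate 4. IPC-like cells and excitatory neuron-like cells held 1 Wnt3a UMI each in replicate 2 and 0 in replicate 4. The order of the classes below the first could not be read at these counts.

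The stretches just upstream of both hem ligands are given to show how unlike they are in base composition, since the genes shared their highest class. RefSeq on GRCm38.p6 places Wnt8b at chr19:44493472-44514273 on the plus strand and Wnt3a at chr11:59248036-59290751 on the minus strand, and a promoter was found for 4 of the 7 members (Wls, Wnt7a, Wnt8b and Wnt3a). The 250 bases before each start read as follows, 5′ to 3′ on the strand of the gene, with capitals for a TAATTA homeodomain core (searched on both strands, where it reads the same). The Wnt8b window is chr19:44493222-44493471 and the Wnt3a window chr11:59290752-59291001.
Wnt8b: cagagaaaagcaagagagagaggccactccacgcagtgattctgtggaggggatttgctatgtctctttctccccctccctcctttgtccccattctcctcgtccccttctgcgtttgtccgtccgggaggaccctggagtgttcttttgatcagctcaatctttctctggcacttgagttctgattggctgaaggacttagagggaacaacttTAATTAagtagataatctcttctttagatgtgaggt
Wnt3a: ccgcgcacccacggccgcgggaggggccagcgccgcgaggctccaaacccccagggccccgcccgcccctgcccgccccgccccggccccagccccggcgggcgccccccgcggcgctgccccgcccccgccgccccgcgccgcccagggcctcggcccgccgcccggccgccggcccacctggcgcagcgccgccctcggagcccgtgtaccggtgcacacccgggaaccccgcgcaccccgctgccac
The Wnt8b window was 48.4% G or C with 5 CpG dinucleotides, and the Wnt3a window 87.6% with 41. The median over 32851 mouse promoter windows of that length was 52.4%. The TAATTA core was found once in the Wnt8b window, beginning 36 bases before the start, and 4.84% of all windows held it. The TCF/LEF core, searched as CTTTGAT and CTTTGAA on both strands, was in none of the 4 windows and in 7.48% of all windows.

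Rspo2 was the most abundant member in hem or choroid plexus-like cells, at 1307 and 1413 CPM. Cajal-Retzius-like cells, early-born neurons of the cortical surface, had 152 and 198 CPM. The third class, meningeal fibroblast-like cells, had 87.2 CPM in replicate 2 and 1.34 CPM in replicate 4, from 68 UMIs in 3 cells against 1 UMI in 1 cell. RGC-like cells held 107 Rspo2 UMIs in replicate 2 and 8 in replicate 4, and 103 of the 107 were in 6 cells with an Lmx1a UMI. Replicate 2 and replicate 4 thus differed in these classes through a few cells. IPC-like cells held 7 and 5 UMIs in 1 of 244 and 5 of 433 cells.

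Wnt7a was shared by the progenitors of the cortex and the interneurons that migrate into it. MGE interneuron-like cells had 50.6 and 62.3 CPM, RGC-like cells 36.9 and 41.6 CPM, and GABAergic cells of no sub-class 42.9 and 28.5 CPM. The MGE interneuron-like values lay above the others in both libraries, and the other classes overlapped. IPC-like cells (7.15 and 3.79 CPM) and excitatory neuron-like cells (2.44 and 3.32 CPM) were far lower. A Wnt7a UMI was found in 123 of 221 and 190 of 384 RGC-like cells and in 32 of 54 and 47 of 108 MGE interneuron-like cells. None was found in the 28 and 20 hem or choroid plexus-like cells, with upper limits of 2.59 and 4.39 CPM from a count of 3, nor in the 18 and 30 meningeal fibroblast-like cells.

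Wnt7b had the opposite order within the cortical lineage. RGC-like cells had 7.58 and 9.66 CPM, IPC-like cells 43.0 and 49.5 CPM, and excitatory neuron-like cells 124 and 133 CPM, with no overlap between these classes. Cajal-Retzius-like cells were higher still, at 149.5 and 212 CPM. MGE interneuron-like cells held 3 and 4 UMIs in all, or 2.41 and 2.71 CPM. A Wnt7b UMI was found in 86.7% and 82.1% of excitatory neuron-like cells, 49.2% and 48.7% of IPC-like cells, 16.3% and 14.8% of RGC-like cells and 5.56% and 3.70% of MGE interneuron-like cells. The share in meningeal fibroblast-like cells was 0 of 18 and 1 of 30 cells.

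Wnt5a was found in progenitors, neurons and cells of the hem alike. Among the 8 classes in the fit, hem or choroid plexus-like cells (47.4 and 90.7 CPM), Cajal-Retzius-like cells (59.8 and 53.8 CPM) and meningeal fibroblast-like cells (51.3 and 61.7 CPM) overlapped at the top. IPC-like cells had 13.9 and 11.7 CPM and RGC-like cells 7.70 and 9.47 CPM, which did not overlap, while MGE interneuron-like cells (7.23 and 17.6 CPM) overlapped with both, and excitatory neuron-like cells were lowest at 5.20 and 5.45 CPM. The caudal ganglionic eminence (CGE) interneuron-like cells, too few for the fit with 5 and 26 cells, had 112 and 190.1 CPM. A Wnt5a UMI was found in 5 of 5 and 16 of 26 of them. Their Wls level was 112 and 187 CPM and their Wnt7a level 25 and 35.2 CPM, and they held no UMI of Wnt8b, Wnt3a or Rspo2.

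Hem or choroid plexus-like cells were compared with RGC-like cells, the cortical stem cells, over sums per class and library. Of the 12928 genes tested with edgeR's quasi-likelihood test (two-sided, Benjamini-Hochberg adjustment over all genes), 44.1% were called at an adjusted p under 0.05, 23.7% higher and 20.4% lower in the hem or choroid plexus-like class. All 7 members were called, 6 of them higher. Their median log2 fold change was 3.67, against -0.05 over all genes tested. Rspo2 was higher by 7.73 ± 1.09 (log2 fold change ± SE, edgeR adjusted p = 0.000116), Wls by 3.85 ± 0.29 (adjusted p = 9.57e-07), Wnt8b by 3.67 ± 0.26 (adjusted p = 9.12e-06) and Wnt5a by 3.06 ± 0.31 (adjusted p = 8.33e-06). Wnt7b differed less, by 1.19 ± 0.34 (edgeR adjusted p = 0.0123), with 15.5 and 21.9 CPM against 7.58 and 9.66 CPM. Wnt3a was higher by 6.12 ± 0.95 (edgeR adjusted p = 0.000623), but it passed the filter on low counts only through the hem or choroid plexus-like class, so that its call in each comparison of that class was largely fixed by the filter. Wnt7a was at least 24.3-fold lower (edgeR adjusted p = 0.000132), taking the absent UMIs as 3 over the class. When the RGC-like cells with an Lmx1a UMI (6 and 3) were left out, an alternative added after the data had been seen, the Rspo2 difference grew to 11.06 and Wnt3a had no UMI left in RGC-like cells, and all 7 members remained called. The Wnt7b call was lost without hem or choroid plexus-like replicate 4, without RGC-like replicate 2, and when classes and tests used different UMIs (edgeR adjusted p = 0.109, 0.0719 and 0.0693). The Wnt3a call was lost with DESeq2's Wald test here and against IPC-like and MGE interneuron-like cells (adjusted p = 0.307, 0.107 and 0.156).

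IPC-like cells were named for the neuron-producing progenitors that descend from RGCs. Against them the calls took in 49.6% of genes (27.3% up and 22.3% down in the hem or choroid plexus-like class). All 7 members were called, 5 higher and 2 lower. Rspo2 (10.93 ± 1.33), Wnt8b (8.56 ± 0.38) and Wls (6.48 ± 0.34) were higher. Wnt3a rested on 71 UMIs against 1, a ratio of 671 with a 95% counting interval from 117 to 26889. Wnt7b was lower in the hem or choroid plexus-like class, at -1.30 ± 0.30 on the log2 scale (edgeR adjusted p = 0.00332), and Wnt7a was at least 3.21-fold lower (edgeR adjusted p = 0.0148). The Wnt7b difference turned to 0.20 (edgeR adjusted p = 0.690) among hem-led cells alone (described below). Its call was lost without hem or choroid plexus-like replicate 2, with at most 5% mitochondrial UMIs, at Leiden resolution 0.5 and with genes scaled within each library (edgeR adjusted p = 0.0638, 0.219, 0.215 and 0.249), and the Wnt7a call without that replicate (adjusted p = 0.114). The comparison with MGE interneuron-like cells called 54.1% of genes (30% up and 24.1% down) and again all 7 members, 6 of them higher. Wls was higher by 1.89 ± 0.28 (edgeR adjusted p = 0.000111), the smallest of the 6. Wnt8b was at least 141-fold and Wnt3a at least 34.9-fold higher, since MGE interneuron-like cells held no UMI of either, and Wnt7a was at least 35.0-fold lower.

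**Figure D2:**
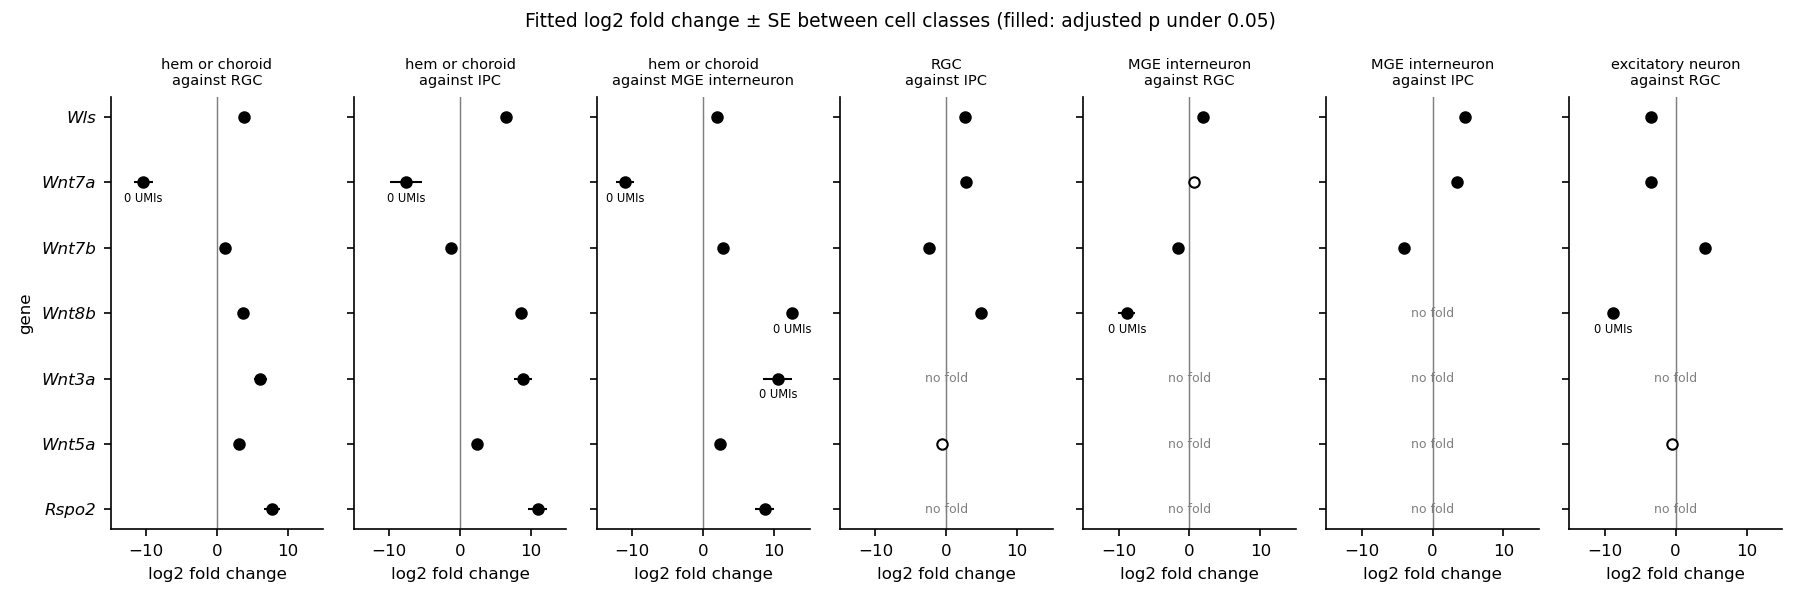
Fitted log2 fold changes (horizontal axes, first class minus second, with SE bars) of the 7 genes (vertical axis) in 7 comparisons of cell classes. Filled points passed an adjusted p of 0.05, "0 UMIs" marks a class in which none was counted, so that the fitted value is no bound, and no fold is shown where a difference was not called and a sum held under 10 UMIs. All 7 genes are filled in the 3 comparisons of the hem or choroid plexus-like class, and Wnt7b lies on the other side of 0 from Wls and Wnt7a in the comparisons among RGC-like, IPC-like, MGE interneuron-like and excitatory neuron-like cells.

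Within the hem or choroid plexus-like class the ligands were not spread evenly. At a finer clustering (Leiden resolution 2), 27 of its cells formed a cluster of their own, led by choroid plexus genes, and 21 did not. These 21 cells (10 of replicate 2 and 11 of replicate 4) are called hem-led here, as a short name, and the 27 (18 and 9) choroid plexus-led. Of the hem markers, Lmx1a was higher in the hem-led cells (947 and 892 CPM against 402 and 303 CPM), but Msx1 was lower (225 and 214 CPM against 371 and 291 CPM), and 7 of 10 and 7 of 11 hem-led cells held a Ttr UMI. Ttr, the transthyretin gene and chief product of the choroid plexus, made up 152045 and 154815 CPM of the choroid plexus-led cells against 11582 and 7014 CPM of the hem-led cells, and these UMIs are part of the totals to which the other genes are scaled. Rspo2 stood at 4302 and 3337 CPM in hem-led cells and at 253 and 223 CPM in choroid plexus-led cells. Wnt8b stood at 537 and 352 CPM against 24.5 and 28.4 CPM. All 71 Wnt3a UMIs and all 33 Wnt7b UMIs of the class were in hem-led cells, in 13 and 8 cells. Wnt5a stood at 142 and 199 CPM in hem-led cells and 14.0 and 23.7 CPM in choroid plexus-led cells. Wls was more even, at 633 and 865 CPM against 265 and 315 CPM, and Wls was found in 20 of 21 hem-led and 26 of 27 choroid plexus-led cells. Wnt7a was at 0 in both. In each library and for each of the 6 detected members the hem-led value was above the choroid plexus-led value. These values describe a split made from the same cells, and no test was made of it.

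**Figure D3:**
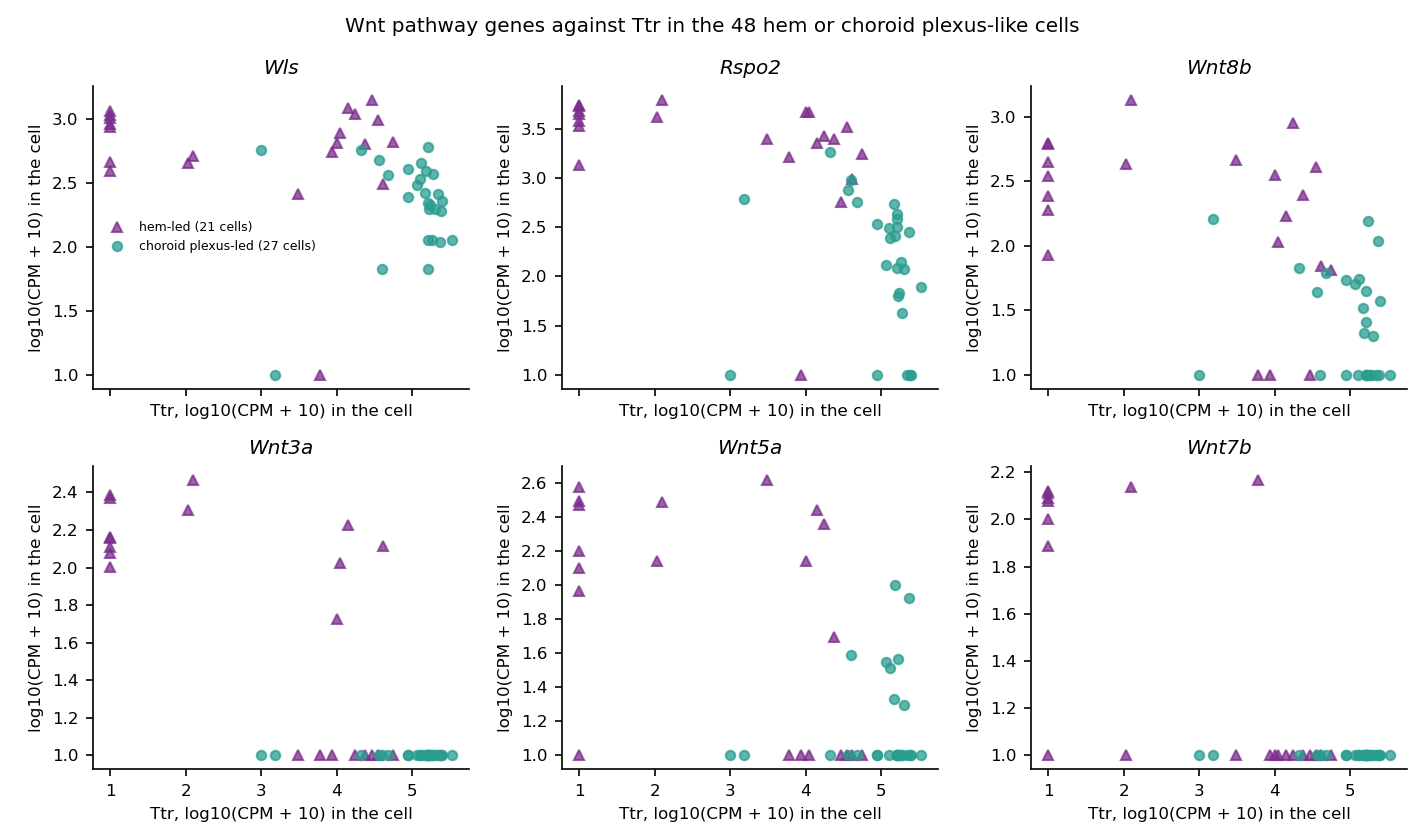
Each point is 1 of the 48 hem or choroid plexus-like cells, with Ttr on the horizontal axis and a member on the vertical axis, both as log10(CPM + 10) of the cell, so that a cell with no UMI sits at 1. Triangles are the 21 hem-led and circles the 27 choroid plexus-led cells. Wnt3a and Wnt7b appear only among triangles, Rspo2 and Wnt8b are lower in cells with much Ttr, and Wls is found over the whole range.

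The hem-led cells alone, also added after the data had been seen, kept 7 of 7 members called against RGC-like cells and against MGE interneuron-like cells, and 5 of 7 against IPC-like cells. Against RGC-like cells their log2 fold changes were 9.02 for Rspo2, 7.62 for Wnt3a, 5.0 for Wnt8b, 4.42 for Wls, 4.22 for Wnt5a and 2.68 for Wnt7b (edgeR adjusted p from 2.61e-06 to 0.000876).

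The other ligands and regulators of the pathway were read from a list of 75 genes in 5 groups. Against RGC-like cells, 33 of the 56 listed genes tested were called (44.1% of all genes were), 19 higher and 14 lower in the hem or choroid plexus-like class, with a median log2 fold change of -0.06 against -0.05 over all genes. Sostdc1, a secreted Wnt and BMP antagonist, rose most (680 CPM ± 10.6 against 1.30 ± 0.197), followed by the ligand Wnt9a (58.7 ± 3.82 against 0.802 ± 0.864) and the R-spondin Rspo3 (1114.9 ± 124 against 24.7 ± 11.5). The receptor Fzd8 (2.89 CPM ± 2.01 against 44.2 ± 3.35) and the secreted antagonists Sfrp2 (4.65 ± 1.70 against 29.2 ± 2.57) and Frzb fell, and Frzb was at least 2.43-fold lower with no UMI in the class. Sostdc1 and Rspo1, like Wnt3a, passed the filter on low counts only through the hem or choroid plexus-like class. Of the 5 feedback targets, genes that canonical signalling switches on in many tissues, 4 were higher and none was lower. Against IPC-like cells, 32 of 56 were called (24 higher) beside 49.6% of all genes, led by Sostdc1 (at least 3966-fold), Rspo1 (155.6 CPM ± 32.3 against 1 UMI, ratio 2610 with a counting interval from 465 to 103461) and Wnt9a. Apc2, Porcn, which attaches the lipid to Wnt proteins, and Bcl9 fell (-4.52, -1.89 and -1.80 on the log2 scale). Against MGE interneuron-like cells, 37 of 56 were called (30 higher) beside 54.1% of all genes, and all 5 feedback targets were higher. Ror1 (340.1 CPM ± 11.5), Lef1 (215 ± 105) and Rspo1 had no UMI in MGE interneuron-like cells and were at least 311-fold, 178-fold and 136-fold higher. Apc2, the receptor Ror2 and Bcl9 fell (-5.54, -2.93 and -2.72).

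The next comparison set RGC-like beside IPC-like cells, named for the consecutive progenitors of the cortex. The IPC-like class also had markers of other classes raised. Its clusters of 309 and 74 cells had 7 and 5 of 13 excitatory neuron markers raised. Its cluster of 194 cells had 8 of 12 RGC markers raised, and that of 100 cells had 4 of each list. The part of these cells in the differences was not tested. The comparison called 35.3% of genes, 19.3% up and 16.0% down in the RGC-like class. Of the 7 members 4 were called. Wnt8b (4.88 ± 0.40, edgeR adjusted p = 3.74e-05), Wnt7a (2.80 ± 0.33, adjusted p = 0.000103) and Wls (2.63 ± 0.31, adjusted p = 4.35e-05) were higher in RGC-like cells, and Wnt7b was lower, at -2.48 ± 0.25 (adjusted p = 1.23e-05). Wnt5a was not called at -0.63 ± 0.28 (edgeR adjusted p = 0.105), but its result turned on the processing. It was called lower in RGC-like cells in 7 alternatives, at -0.66 (edgeR adjusted p = 0.0278) with the compared classes alone in the fit and from -2.55 to -4.07 under the other six (edgeR adjusted p from 1.12e-05 to 0.000566), and stood at 0.35 (edgeR adjusted p = 0.757) at Leiden resolution 0.5. Wnt3a (10 and 0 UMIs against 1 and 0) and Rspo2 (107 and 8 UMIs against 7 and 5) were not called either, and no fold is given for a difference that was not called where a sum held under 10 UMIs. At Leiden resolution 0.5 the Wls and Wnt8b differences fell to 0.75 and 2.83 and their calls were lost (edgeR adjusted p = 0.0970 and 0.0868). Wnt8b also lost its call under the limit of 5% mitochondrial UMIs, with doublets kept and with Wnt genes among the clustering genes (edgeR adjusted p = 0.154, 0.767 and 0.188). Its difference fell to 1.24 under that limit and to 0.40 with doublets kept. In the pathway list 31 of 56 were called, 21 of them higher in RGC-like cells. All 7 secreted inhibitors tested were higher in RGC-like cells. Rspo1 (4.57 CPM ± 3.89 against 1 UMI, ratio 72.6 with a counting interval from 12.6 to 2906), Sostdc1 (at least 7.64-fold) and Frzb (4.10 ± 1.47 against 0.217 ± 0.116) led. Apc2, Porcn and Dvl3, a cytoplasmic transducer of the receptors, were lower (-2.84, -1.29 and -1.03).

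Along the lineage to excitatory neurons the 2 Wnt7 genes ran in opposite directions. Against RGC-like cells, excitatory neuron-like cells had Wnt7b higher by 4.13 ± 0.26 (edgeR adjusted p = 1.14e-07), Wnt7a lower, at -3.51 ± 0.33 (adjusted p = 7.31e-06), Wls lower, at -3.44 ± 0.31 (adjusted p = 1.78e-06) and Wnt8b at least 142-fold lower (adjusted p = 2.30e-06), so 4 of 7 members were called where 52.7% of all genes were (27.4% higher and 25.3% lower). Wnt5a was not called at -0.45 ± 0.29 (edgeR adjusted p = 0.207), and its direction turned in 7 alternatives with other filters or clusterings. In 6 of them it was called higher in excitatory neuron-like cells, at 1.12 to 2.36 (edgeR adjusted p from 6.55e-05 to 0.0233). Of the pathway list 35 of 56 were called, 30 of them lower in excitatory neuron-like cells, with a median log2 fold change of -1.23 against 0.03 over all genes. None of the 21 receptors and co-receptors tested was higher and 14 were lower. Frzb (at least 41.5-fold), the transcription factor Tcf7l1 (3.63 CPM ± 1.42 against 277 ± 17.8) and Rspo1 (2 UMIs, 65.7-fold lower with a counting interval from 17.6 to 552) fell most. Apc2, Rspo3 (209 CPM ± 14.4 against 24.7 ± 11.5) and Porcn rose, by 3.40, 3.33 and 1.91.

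The levels in single clusters showed where these changes lay. Among the 4 IPC-like clusters, Wnt7b was lowest in the 74 cells led by Neurod1, Unc5d and Eomes, at 5.37 and 21.0 CPM. In the other three it stood at 30.3 and 29.7 CPM in the 100 cells led by the mitotic genes Ube2c, Mki67 and Top2a, at 39.8 and 40.6 CPM in the 194 cells led by Gm29260, Eomes and Neurog2, and at 63.6 and 70.7 CPM in the 309 cells led by Unc5d, Slc17a6 and Neurod1. Wnt7a stood at 4.89 and 7.02, 17.7 and 9.72, and 0 and 0.221 CPM in the same clusters, and at 0 and 1.45 CPM in the cluster of 74 cells. Among the 6 excitatory neuron-like clusters Wnt7b ran from 73.6 and 54.4 CPM (104 cells led by Tafa1) to 239.6 and 233 CPM (114 cells led by Rgs6, Lrfn5 and Hs3st4). Wnt7b stood at 117 and 119.5 CPM in the cluster of 328 cells and at 143 and 165 CPM in that of 175 cells. Wls stayed at or below 11.1 CPM in all 6 clusters and both libraries. Among excitatory neuron-like cells with a Wnt7b UMI, 14 of 359 and 19 of 474 (3.90% and 4.01%) also held a Wls UMI. Of those without a Wnt7b UMI, 4 of 55 and 7 of 103 (7.27% and 6.80%) did. Thinning to the same depth per cell, as above, left 411 and 563 cells. Wls was then found in 1 of 184 and 3 of 261 Wnt7b-positive cells, and in 1 and 2 of the others. These Wls counts are too low to rank the cells with and without a Wnt7b UMI.

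**Figure D4:**
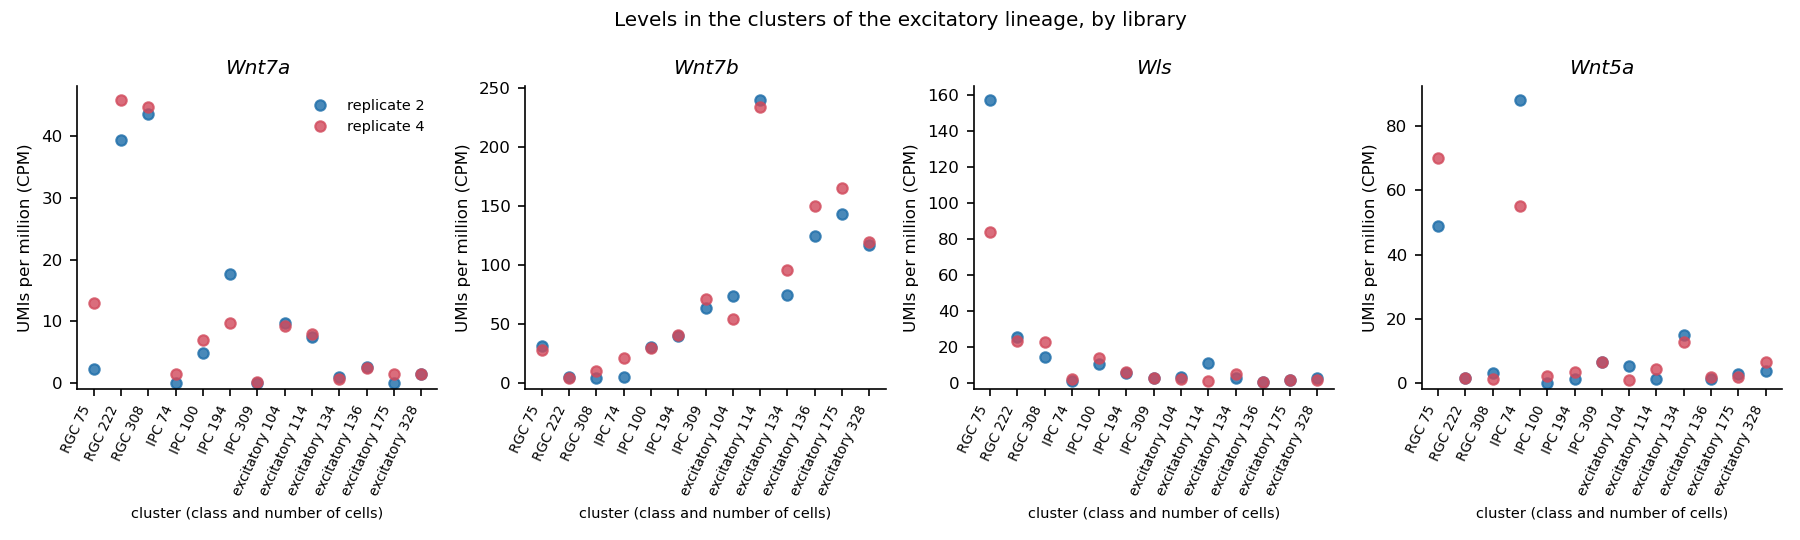
CPM (vertical axes, linear) of Wnt7a, Wnt7b, Wls and Wnt5a in 3 clusters of RGC-like, 4 of IPC-like and 6 of excitatory neuron-like cells (horizontal axes, named by class and number of cells), with 1 point per library. Wnt7b is highest in the excitatory neuron-like cluster of 114 cells, Wnt7a in the RGC-like clusters of 222 and 308 cells, and Wls and Wnt5a stand out in the RGC-like cluster of 75 cells, with Wnt5a also high in the IPC-like cluster of 74 cells.

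Wnt5a lay in small clusters of both progenitor classes. The IPC-like cluster of 74 cells held 82 of the 103 Wnt5a UMIs of that class in replicate 2 and 76 of 117 in replicate 4, at 88.1 and 55.1 CPM, while the other IPC-like clusters were at or below 6.54 CPM. It was led by Neurod1, Unc5d and Eomes and had 3 of 9 Cajal-Retzius markers raised. The RGC-like cluster of 75 cells, led by Tmem132c, Gabrb1 and Tnc, held 44 of 60 and 86 of 99 Wnt5a UMIs. It also had Wls at 157 and 83.8 CPM, Wnt8b at 85.3 and 70.0 CPM and Wnt7b at 31.0 and 27.7 CPM, and Wnt7a at 2.22 and 13.0 CPM. The other 2 RGC-like clusters had Wnt7a between 39.4 and 45.9 CPM, Wls between 14.3 and 25.4 CPM and Wnt5a at or below 3.1 CPM.

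RGC-like cells with and without a Wnt8b UMI were then compared to describe the progenitors that hold a hem ligand outside the hem. There were 20 and 41 Wnt8b-positive and 201 and 343 Wnt8b-negative cells, with median depths of 37844.5 and 32333.0 against 32965.0 and 26672.0 UMIs. Wnt8b itself was left out of the test. Of the 12476 genes tested 6.96% were called, 4.02% higher and 2.94% lower in Wnt8b-positive cells. All 4 members that passed the filter on low counts were called. Wnt5a was higher by 4.65 ± 0.22 (edgeR adjusted p = 0.000934), with 42 and 77 UMIs in the positive and 18 and 22 in the far more numerous negative cells. Wls was higher by 2.68 ± 0.29 (edgeR adjusted p = 0.00627) and Wnt7b by 2.03 ± 0.42 (adjusted p = 0.0408), and Wnt7a was lower, at -2.57 ± 0.30 (adjusted p = 0.00758). Each difference had the same sign in both libraries. Wnt3a and Rspo2 did not pass the filter. Their UMIs in positive cells were 10 and 0 for Wnt3a and 97 and 3 for Rspo2, against 0 and 0 and 10 and 5 in negative cells.

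Of the Wnt8b-positive cells 18 of 20 and 21 of 41 were in the RGC-like cluster of 75 cells. With the cells that held an Lmx1a UMI left out (6 and 3 cells), all 4 members were still called, at 4.56, 2.54, 1.82 and -2.62 for Wnt5a, Wls, Wnt7b and Wnt7a. When every cell was thinned to 5000 UMIs, 7 and 19 cells stayed positive (5 and 20 in the separate draw behind the thinned shares given above), and Wnt5a (3.93, edgeR adjusted p = 0.0157) and Wls (2.47, adjusted p = 0.0201) were called while Wnt7a (-2.67, adjusted p = 0.278) was not and Wnt7b was not tested. In single cells, Wnt8b was found in 3 of 123 and 7 of 190 RGC-like cells with a Wnt7a UMI but in 17 of 98 and 34 of 194 cells without one. Wnt7b was found in 9.76% and 10.5% of the Wnt7a-positive and 24.5% and 19.1% of the Wnt7a-negative RGC-like cells. Thinned to 5000 UMIs (212 and 365 cells), Wnt8b was in 0 of 30 and 0 of 63 Wnt7a-positive cells and in 5 and 20 of the others, and Wnt7b in 0 and 2 of the Wnt7a-positive cells and in 4 and 10 of the others. A Wls UMI was found in 16 of 20 and 26 of 41 Wnt8b-positive cells and in 48 of 201 and 86 of 343 Wnt8b-negative cells.

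Genes known for graded expression across the cortical primordium, most of them transcription factors, were read in the same comparison. Of 8 genes listed for the medial pallium 5 were called, all higher in Wnt8b-positive cells, and the median log2 fold change of the 8 was 1.06, against 0.00 over all genes. Id3 was higher by 3.24 ± 0.64 but with 208 and 89 UMIs in the positive cells of the 2 libraries, Lef1 by 2.18 ± 0.16, Zbtb20 by 1.56 ± 0.16, Emx2 by 1.10 ± 0.12 and Dmrt3 by 1.01 ± 0.18. Dmrta2 (0.58 ± 0.13), Lhx2 (0.32 ± 0.11) and Nr2f1 (-0.53 ± 0.32) were not called. Of 7 genes tested for the lateral or rostral pallium 3 were called, all lower, and these were Etv1 (-2.28 ± 0.31), Nr2e1 (-1.62 ± 0.15) and Sfrp2 (-1.61 ± 0.28). Pax6 (-0.56 ± 0.13), Etv5 (-0.40 ± 0.24), Fgfr3 (0.00 ± 0.38) and Sp8 (1.0 ± 0.25) were not called. Of the Wnt pathway list 21 of 50 were called (6.96% of all genes were), 14 higher, and 4 of the 5 feedback targets were higher. Top2a, a gene of dividing cells, was at 221 CPM ± 85.0 in Wnt8b-positive and 578 CPM ± 30.1 in Wnt8b-negative cells, and its part in these differences was not tested.

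**Figure D5:**
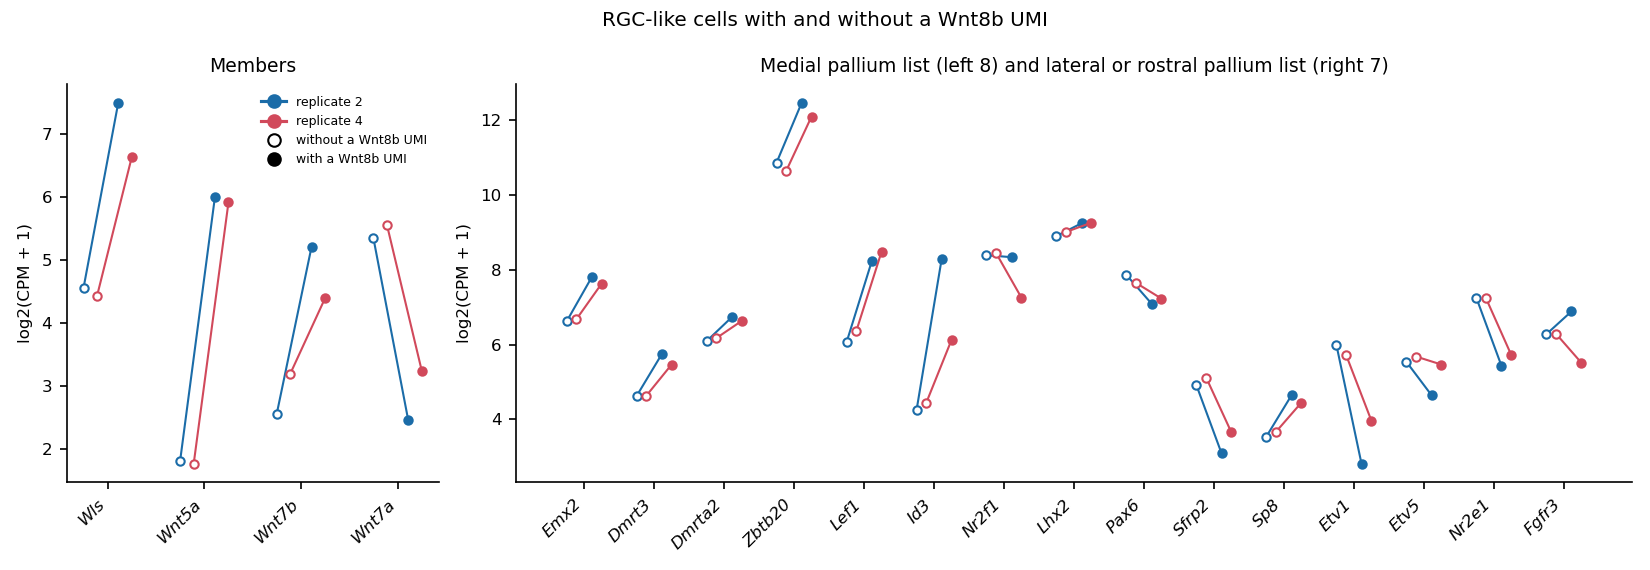
Levels as log2(CPM + 1) in RGC-like cells without (open) and with (filled) a Wnt8b UMI, with a line for each library. Left, the 4 members tested, with Wls, Wnt5a and Wnt7b higher and Wnt7a lower in Wnt8b-positive cells in both libraries, and right, the pallium genes, of which Emx2, Dmrt3, Zbtb20, Lef1 and Id3 were called higher and Sfrp2, Etv1 and Nr2e1 lower.

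Among all genes, the called genes with the largest differences between Wnt8b-positive and Wnt8b-negative cells were Adcy8, an adenylyl cyclase (at least 63.8-fold higher), Iqcm (at least 52.7-fold), Slc39a12, a zinc transporter (22 UMIs against 3, ratio 61.0 with a counting interval from 18.3 to 318), Slc17a6, a vesicular glutamate transporter (16.1 CPM ± 7.85 against 0.320 ± 0.143), and A430078I02Rik (10.0 ± 9.89 against 0.234 ± 0.132). The largest called decreases were in genes with no UMI in Wnt8b-positive cells, so the genes of either direction passed the filter on low counts only through the cells in which they were high and had to differ. They were Gm44593 (at least 19.1-fold lower), Prdm16os (11.6-fold), Zbtb7c (6.25-fold), Stac (6.21-fold) and Actn2 (4.89-fold).

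MGE interneuron-like cells were compared with both progenitor classes, the pair behind the study's question on interneurons. The calls against RGC-like cells took in 51.0% of genes (24.4% up and 26.6% down in the interneuron-like class) and 3 of 7 members. Wls was higher by 1.96 ± 0.28 (edgeR adjusted p = 9.49e-05), Wnt7b was lower, at -1.61 ± 0.48 (adjusted p = 0.0131), and Wnt8b was at least 12.3-fold lower (adjusted p = 0.000303). Wnt7a was not called at 0.66 ± 0.31 (edgeR adjusted p = 0.0996), although its level was higher in MGE interneuron-like cells in both libraries. It was called when the compared classes alone were fitted (0.61, edgeR adjusted p = 0.0173) and when genes were scaled within each library (0.72, adjusted p = 0.0488). The Wnt7b call rests on 3 and 4 UMIs and was lost in 8 of the alternatives, among them each of the MGE interneuron-like libraries left out in turn (edgeR adjusted p = 0.0804 and 0.0771). The Wnt8b call was lost with doublets kept, at Leiden resolution 0.5 and with Wnt genes among the clustering genes (edgeR adjusted p = 0.0564, 0.0720 and 0.184). Those against IPC-like cells took in 36.0% of genes (17.4% up and 18.5% down) and 3 of 7 members. Wls was higher by 4.59 ± 0.33 (edgeR adjusted p = 1.07e-06) and Wnt7a by 3.46 ± 0.36 (adjusted p = 3.61e-05), and Wnt7b was lower, at -4.10 ± 0.40 (adjusted p = 1.05e-05).

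Within the MGE interneuron-like class, Wls and Wnt7a were set beside Sst, the gene of somatostatin-expressing interneurons. Sst-positive MGE interneuron-like cells (23 and 34) had Wls at 116 CPM ± 32.9 and Wnt7a at 55.2 CPM ± 9.22. Sst-negative cells (31 and 74) had 119 ± 23.2 and 57.4 ± 7.37. No test was made of these values. Each difference was smaller than the SD of either group, which cannot show that the groups are alike. By sub-cluster the levels differed more. A sub-cluster of 27 cells led by Sst, all of replicate 4 and with CGE markers raised as well, had Wls at 20.7 CPM and Wnt7a at 33.6 CPM. The sub-cluster of 67 cells, also led by Sst, had Wls at 141 and 122 CPM and Wnt7a at 63.0 and 64.1 CPM. That of 68 cells, led by Nxph1, had Wls at 131 and 133 CPM and Wnt7a at 26.2 and 83.0 CPM. In cells with a Wnt7a UMI, a Wls UMI was found in 24 of 32 (replicate 2) and 21 of 47 (replicate 4), against 12 of 22 and 21 of 61 cells without one. Thinned to 5000 UMIs (53 and 98 cells), Wls was found in 5 of 11 and 5 of 19 cells with a Wnt7a UMI and in 21 and 20 of the others.

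In the pathway list, 32 of 56 genes were called between MGE interneuron-like and RGC-like cells (51.0% of all genes were), 26 of them lower in MGE interneuron-like cells, with a median log2 fold change of -2.45 against -0.06 over all genes. All 5 feedback targets were lower. Lef1, Nkd1 and the receptor Fzd9 had no UMI in MGE interneuron-like cells and were at least 93.3-fold, 22.9-fold and 19.1-fold lower. Apc2 (126 CPM ± 1.42 against 9.56 ± 0.268), Apc, a scaffold of the β-catenin destruction complex (697 ± 31.4 against 145 ± 1.52), and Porcn (17.7 ± 1.09 against 5.42 ± 1.05) were higher. Against IPC-like cells 25 of 56 were called, 19 of them lower, beside 36.0% of all genes. Lef1 (at least 42.3-fold), Nkd1 (27.1-fold) and Ror1 (6.04-fold) fell, and Ror2 (2.02 ± 0.45), Lgr4, an R-spondin receptor (1.92 ± 0.48), and Apc (1.65 ± 0.26) rose.

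For each member the tested genes with the most similar level across the 16 sums (8 classes in 2 libraries) were found by Pearson's r of log2(CPM + 10), as a description with no test, since sums of 1 library share cells and depth. For Wnt7a they included Sox1 (r = 0.957) and Zdhhc2 (0.924), and for Wnt7b they were Ntng2 (0.949), 6530402F18Rik (0.942) and Tbr1 (0.940). For Wls they were Ilvbl (0.931), Arl4a (0.920) and Arid5b (0.919), and for Wnt5a Morf4l2 (0.906), Sulf2 (0.900) and Mbnl2 (0.899). For members found mostly in the hem or choroid plexus-like class the values were higher. They were, for Wnt8b, Cfap54 (0.986), Dnaaf3 (0.976) and Cfap44 (0.974), for Wnt3a Chil5 (0.999), Slco1b2 (0.998) and Ccna1 (0.998), and for Rspo2 P2rx6 (0.971), Prrg4 (0.967) and Efhb (0.967).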

How the data were processed

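The authors dissociated the tissue, made 10x Genomics 3′ v3.1 libraries and, per the submitters' processing notes, processed the reads with Cell Ranger 7.0.0 on mm10. The annotation and the intron setting are not given in the sources used here. The authors deposited raw UMI counts for each gene in each called barcode, 1 table per library, without normalization.

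From these counts, barcodes under 1000 detected genes or over 10% mitochondrial UMIs were dropped, and 12 and 48 barcodes called as doublets by Scrublet (0.991% and 2.44%) were removed. Cells were clustered with scanpy 1.11.5 (2000 variable genes without the members and the Wnt pathway list, 30 principal components, 20 neighbours, Leiden resolution 1). A cluster was named where at least 3 markers of a list were raised, that is at least 1 on the log2 scale above the median cluster with 10 CPM added and present in at least 25% of its cells. The name was withheld where the leading genes held more markers of another class. It was also withheld where the median depth was under 1/3 of the library's and no own marker led. Of 24 clusters 4 stayed without a name for these reasons, although RGC, IPC or excitatory neuron markers were raised in them. They held 164 and 189 retained cells, with 6.56% of the Wls and 6.46% of the Wnt7a UMIs, and entered no comparison.

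UMIs were summed per class and library for 8 classes (10 or more cells in both libraries), giving 16 sums, and tested with edgeR 4.0.16 (R 4.3.3, TMM, filterByExpr, quasi-likelihood test, no block). DESeq2 1.42.0 was an alternative, as were other filters, clusterings, normalizations and left-out sums. A replicate number names 1 library, so sums with the same number come from the same library. The median correlation of their deviations from the class means was 0.0699 over 28 pairs of classes (-0.0199 to 0.332). Genes absent from a class were compared by a floor of 3 counts over that class.

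The members and gene lists were chosen with earlier results of these data known. Genes named were the members, up to 3 called genes per direction of the Wnt pathway list by log2 fold change, if both libraries had the same sign, the 3 genes most correlated with each member, and up to 5 called genes per direction and the pallium lists in the comparison of Wnt8b-positive cells. Clusters and the hem-led and choroid plexus-led cells were described after their values had been seen. Some genes that these rules or the marker checks would name are not reported here. Statistics were tested on simulated data.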

Additional observations from a re-analysis of the deposited data

Results flagged for a closer look

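Barcodes that failed the filters or were called doublets, 513 in replicate 2 and 666 in replicate 4, entered no class comparison but held UMIs of 6 members above the limit that a count of 0 allows in each library. They held 228 UMIs of Wls, 447 of Wnt7b, 123 of Wnt7a, 102 of Rspo2, 69 of Wnt5a and 29 of Wnt8b, and Wnt3a had 5 UMIs in replicate 2 and 0 in replicate 4. Wls stood at 38.1 and 33.7 CPM and Wnt7b at 72.6 and 67.5 CPM in these barcodes. Rspo2 stood at 33.7 and 4.34 CPM, and 50 of its 85 UMIs in replicate 2 came from 1 barcode. No group of 4 or more samples was available to look for a library far from the others.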

How the results depend on the processing

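Of 39 called member fold changes, 28 kept their call and direction under every alternative run for them. Over 587 alternatives to these calls, 557 kept both, 29 lost the call and 1 reversed, and the cause was not tested. Under the replicate block every comparison had as many members called as without it, and the Wnt8b comparison called 1114 genes in place of 868. The reversed values were Wnt7b in hem or choroid plexus-like against IPC-like cells among hem-led cells alone (0.20), Wnt5a in RGC-like against IPC-like cells at Leiden resolution 0.5 (0.35), and Wnt5a in excitatory neuron-like against RGC-like cells at 1.95 (at least 500 genes), 1.72 (at most 5% mitochondrial UMIs), 1.85 (doublets kept), 1.34 and 1.12 (Leiden resolution 0.5 and 2), 1.13 (genes scaled within each library) and 2.36 (Wnt genes among the clustering genes). Of these reversed values, those of excitatory neuron-like against RGC-like cells were called except that with genes scaled within each library, and the other two were not. Hem-led cells alone gave 2106, 3215 and 4436 called genes against RGC-like, IPC-like and MGE interneuron-like cells, where the whole class gave 5705, 6410 and 6992. With 1 sum left out in turn, hem or choroid plexus-like against RGC-like cells gave 3625 (without hem or choroid plexus-like replicate 2) to 4882 genes, RGC-like against IPC-like cells 2687 to 2777 genes (each of the 4 sums), and MGE interneuron-like against IPC-like cells 3058 (without MGE interneuron-like replicate 4) to 3671 genes. RGC-like against IPC-like cells (4563 genes, 4 members) gave 7157 genes with the compared classes alone and 2642 genes and 2 members at Leiden resolution 0.5. MGE interneuron-like against RGC-like cells had 1 member called with at least 500 genes and 5 with genes scaled within each library, in place of 3. Against IPC-like cells at least 500 genes gave 2829 called genes in place of 4651. The Wnt8b comparison gave 124 genes and 2 members after thinning and 2155 genes with no filter on low counts. The class with the highest level stayed the same for 2 of 7 members with at least 500 genes and for 4 of 7 at Leiden resolution 2 and with Wnt genes among the clustering genes. Under these settings Wls was highest in meningeal fibroblast-like cells. So it was with at most 5% mitochondrial UMIs, at Leiden resolution 0.5 and with genes scaled within each library.

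The hem or choroid plexus-like class took 38, 42 and 39 cells of the RGC-like cluster of 75 cells with at most 5% mitochondrial UMIs, at Leiden resolution 0.5 and with genes scaled within each library. With at least 500 genes it was not found, and with doublets kept, at Leiden resolution 2 or with Wnt genes among the clustering genes it held 18 and 9 cells, too few to be tested. Wnt3a rested on 85 UMIs in all, and low counts set the limits of its order and of Wnt7b in interneurons.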
